A study of Rattus norvegicus with 16 samples.

Results

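The genes described here are 9 markers of lymphocytes in rat fat: the CD3 chains Cd3d, Cd3e and Cd3g, the coreceptor genes Cd4, Cd8a and Cd8b and the chemokine gene Ccl5 for T cells, and Cd79b and Ms4a1 for B cells. They were taken by symbol, with the array's probes named through the rat RefSeq gene table. Of these, 8 were matched to a probe, 1 each, among 15162 genes so matched. Ms4a1 was not matched to a probe and was not analysed here, so Cd79b alone stood for B cells. Of the 8, 7 passed the filter for signal above background, among 11592 genes that did. Cd3e did not.

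The tissue was epididymal white adipose tissue, the fat pad beside the epididymis, of male rats killed at 30 days of age without fasting. HFT animals were sons of dams on a high-fat diet that took 25 mg per kg body weight of GSPE, a grape seed procyanidin extract, in low-fat condensed milk each day through pregnancy and lactation. HF animals were sons of dams on the same diet that took the condensed milk alone. After weaning on day 21 the sons of both groups ate the high-fat diet of their mothers, and none was described as dosed with the extract himself. Each group held 8 animals with 1 array each, and since the labels name no dams, any littermates were treated as independent in the p-values.

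T cells recognise antigen through a receptor that signals by way of the CD3 chains, with CD4 or CD8 as the coreceptor that binds class II or class I MHC molecules. B cells use a membrane antibody that signals by way of CD79A and CD79B. Visceral fat holds both lineages among many macrophages. In the rat CD4 is also carried by macrophages, and CCL5 is made by cytotoxic T cells and natural killer cells as well. In a bulk sample, fewer cells of a type and less RNA per cell cannot be told apart.

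The members share neighbourhoods in the genome. Cd3g, Cd3d and Cd3e lie close together on chromosome 8, and Cd8a and Cd8b on chromosome 4. RefSeq promoter windows of the assembly GRCr8, 300 bases around a transcript start, were at hand for 4 members, Cd3d, Cd3e, Cd3g and Cd8a. Shown are Cd3d and Cd3g, neighbours whose signals ran differently over the animals, and Cd8a, the member with the widest spread. The windows are chr8:54185269-54185568 on the plus strand for Cd3d, chr8:54183869-54184168 on the minus strand for Cd3g and chr4:104923866-104924165 on the plus strand for Cd8a. Capitals mark matches, on either strand, to 4 short core motifs of factors known in lymphocytes. The letters were GGAAG for the ETS family of factors, then GATAA for the family of GATA factors, CAGCTG for the E-box that E proteins bind, and TGTGGT for the RUNX family.
Cd3d: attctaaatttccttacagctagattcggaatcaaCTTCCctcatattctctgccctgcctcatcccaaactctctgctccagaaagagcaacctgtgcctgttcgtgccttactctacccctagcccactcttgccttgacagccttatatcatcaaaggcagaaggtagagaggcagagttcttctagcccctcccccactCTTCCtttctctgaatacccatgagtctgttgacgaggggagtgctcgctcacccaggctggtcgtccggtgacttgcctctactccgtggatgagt
Cd3g: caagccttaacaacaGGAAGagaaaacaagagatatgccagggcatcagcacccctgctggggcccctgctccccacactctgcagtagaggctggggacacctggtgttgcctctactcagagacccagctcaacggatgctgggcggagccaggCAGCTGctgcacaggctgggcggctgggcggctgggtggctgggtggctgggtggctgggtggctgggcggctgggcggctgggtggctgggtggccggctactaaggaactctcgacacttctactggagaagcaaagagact
Cd8a: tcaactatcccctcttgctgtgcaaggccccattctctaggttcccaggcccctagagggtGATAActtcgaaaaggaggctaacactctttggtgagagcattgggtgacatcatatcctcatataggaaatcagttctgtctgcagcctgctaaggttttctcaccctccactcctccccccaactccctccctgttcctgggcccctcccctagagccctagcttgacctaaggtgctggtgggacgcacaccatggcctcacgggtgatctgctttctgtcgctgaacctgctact
The Cd3d window held 2 ETS matches, the Cd3g window 1 ETS match and 1 E-box match, and the Cd8a window 1 GATA match. The Cd3e window held 1 ETS match. None of the 4 windows held the RUNX letters. Among 33469 windows of 300 bases, 70.1% held the ETS letters, 26.5% the GATA letters, 15.1% the E-box letters and 17.3% the RUNX letters, so matches of this kind are common. No matched motif overlapped another in these windows.

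Levels are log2 processed signal minus the array's own 75th percentile, so 0 is the signal that 75% of the array's spots lie below. Each probe has its own brightness, and levels are compared between animals, not between genes. The 75th percentile of the raw signal ran from 753 on HF 10 to 1366 on HFT 28, without saturated spots, and between 68.2% and 73.5% of probes were marked well above background. The number of arrays limits the precision. The tissue label was checked against 8 adipocyte genes, all of which lay well above background on every array, with Adipoq (adiponectin) at 6.31 to 7.23. Every slide held 2 HFT animals at positions 3 and 4 and 2 HF animals at positions 1 and 2, so slide position cannot be told apart from group. On 3 arrays Lcn5, a lipocalin of the epididymal duct, lay above 0 (3.42 on HFT 23, 4.12 on HFT 28 and 4.12 on HF 8), and on the other 13 it ran from -6.23 to -2.71. On 3 further arrays Upk3a, a uroplakin of the lining of bladder and ureter, lay above 0 (2.95 on HFT 22, 4.69 on HFT 24 and 4.69 on HF 35), and it was -5.98 or lower elsewhere. Results that rest on these arrays are given with and without them.

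The CD3 genes differed in how clearly they were detected and in how widely they spread. Cd3d, the delta chain, was well above background on all 16 arrays and steady, at -2.92 to -2.22 in HFT animals (median -2.44) and -2.95 to -2.46 in HF animals (median -2.61). The groups overlapped almost fully, and the SD over the 16 arrays stood at the 35.8th percentile of all kept probes. Its slide means were -2.75, -2.71, -2.47 and -2.37 on slides 1 to 4. Cd3g, the gamma chain, was also above background on all 16 arrays, yet its SD stood at the 94.1st percentile. In HFT animals Cd3g read -3.81, -4.00, -2.55, -4.97, -5.31, -4.70, -4.04 and -4.79 on HFT 22, 23, 24, 25, 26, 27, 28 and 36. In HF animals it read -4.86, -5.39, -5.66, -4.95, -4.64, -5.21, -5.73 and -2.82 on HF 8, 9, 10, 11, 12, 13, 14 and 35. Its 3 highest arrays were HFT 24, HF 35 and HFT 22, the 3 with Upk3a above 0, and the groups overlapped. Cd3e, the epsilon chain that the receptor cannot do without, was well above background on 1 array only, HFT 23, where it read -6.12. On the other arrays Cd3e lay at -8.95 to -7.53 in HFT and -9.07 to -8.08 in HF, and no fold is given for it. After slide means were subtracted, Cd3d and Cd3e ran together over the 16 arrays (r = 0.81, rho = 0.82, adjusted permutation p = 0.00238 and 0.00196 over 28 pairs of members). Without the 3 arrays with Lcn5 above 0 the values were r = 0.79 and rho = 0.82 (adjusted p = 0.226 and 0.118). Apart from HFT 23, the Cd3e values in these correlations were not well above background. For Cd3g over 16 arrays r was -0.19 with Cd3d and 0.11 with Cd3e (rho = 0.015 and 0.19), and neither passed.

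**Figure D1:**
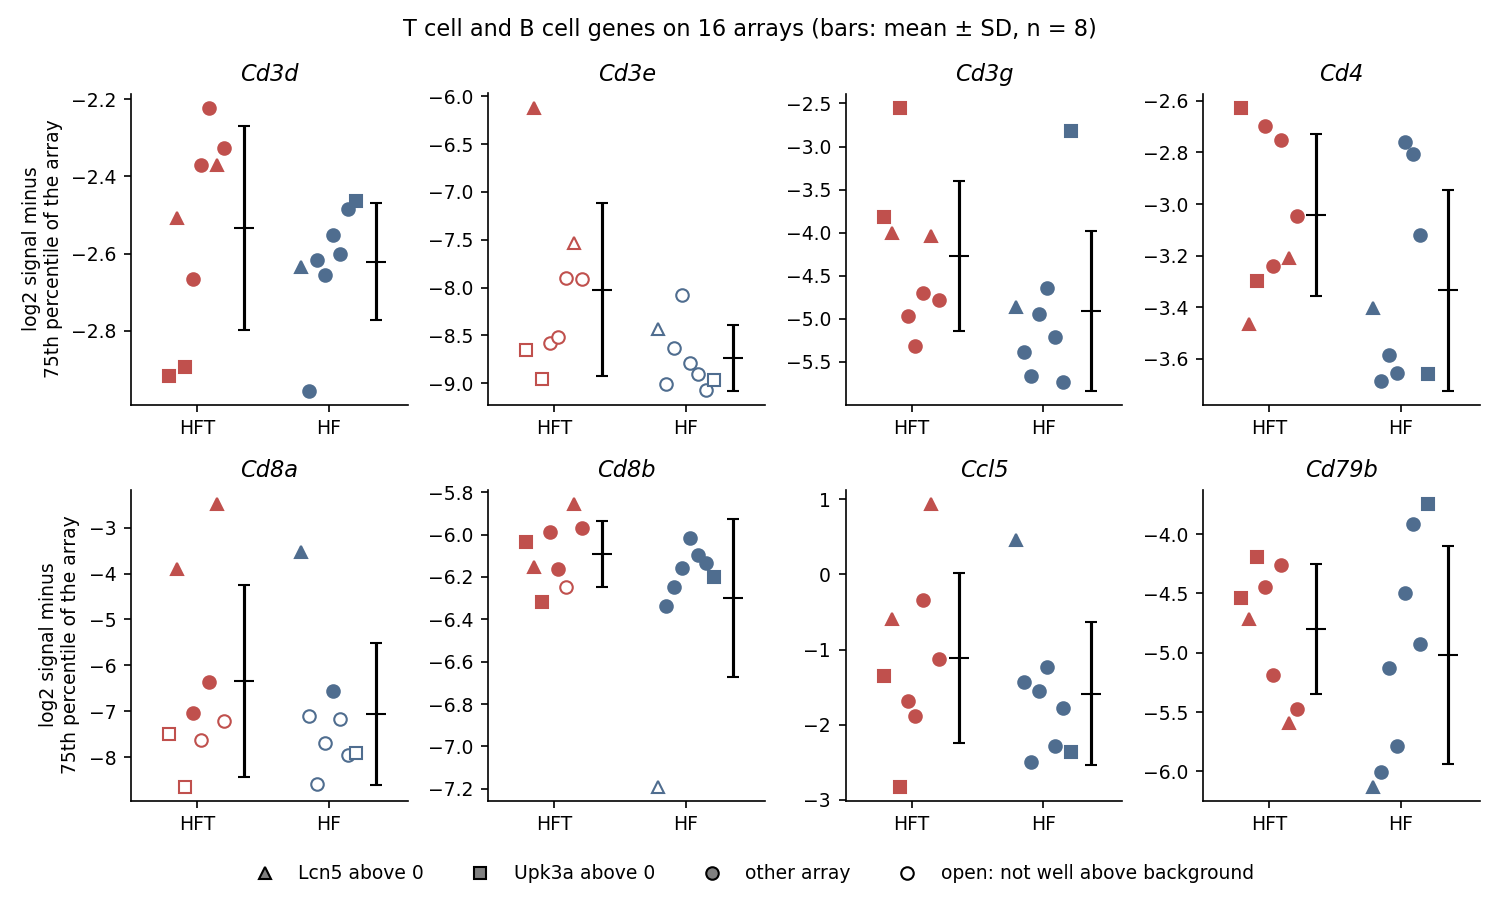
Level of each member (log2 signal minus the array's 75th percentile, vertical axis, own scale per gene) in 8 HFT and 8 HF animals, with mean ± SD bars. Triangles are arrays with Lcn5 above 0, squares arrays with Upk3a above 0 and open symbols values not well above background. The groups overlap in every panel, Cd8a is highest on the triangles (-3.90, -2.48 and -3.54) and Cd3g on the squares (-3.81, -2.55 and -2.82).

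Among the coreceptors, Cd4 was clear on every array while Cd8a was mostly at background. Cd4 ran from -3.47 to -2.63 in HFT animals (median -3.13) and from -3.69 to -2.76 in HF animals (median -3.49). Of the HFT animals, 7 lay above the HF mean, but HF 12 and HF 13, at -2.76 and -2.81, were among the highest of all, so the groups overlapped. Cd8a, the alpha chain, was well above background on 4 HFT arrays (-3.90 on HFT 23, -7.04 on HFT 25, -6.36 on HFT 27 and -2.48 on HFT 28) and 2 HF arrays (-3.54 on HF 8 and -6.56 on HF 12). The other 10 arrays lay between -8.63 and -7.09. Cd8a thus had a step of 2.46 log2 units between 3 arrays, HFT 23, HFT 28 and HF 8, and the rest, and the widest SD of the members, at the 98.3rd percentile of all kept probes. It passed the filter through the HFT arrays alone, exactly at the minimum of 4. Cd8b, the beta chain that marks conventional CD8 T cells, lay close to its limit on all arrays, at -6.32 to -5.85 in HFT and -7.19 to -6.02 in HF, and was not well above background on HFT 27 and HF 8. It did not share the step of Cd8a: on HFT 23, HFT 28 and HF 8 Cd8b read -6.15, -5.85 and -7.19, the last its lowest value on any array.

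Ccl5, a chemokine that draws T cells and monocytes, was well above background on all 16 arrays. In HFT animals it read -1.35, -0.59, -2.82, -1.69, -1.89, -0.35, 0.94 and -1.12 on HFT 22, 23, 24, 25, 26, 27, 28 and 36. In HF animals it read 0.46, -1.43, -2.50, -1.56, -1.23, -2.28, -1.77 and -2.37 on HF 8, 9, 10, 11, 12, 13, 14 and 35. HFT 28 and HF 8 were the highest, HFT 27 and HFT 23 followed, HFT 24 was the lowest, and both groups covered nearly the same range. Its SD over the arrays stood at the 95.1st percentile.

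Cd79b, the beta chain of the B cell receptor's signalling pair, was well above background on all 16 arrays and spread widely, with an SD at the 91.6th percentile. In HFT animals it read -4.54, -4.72, -4.19, -4.44, -5.19, -4.26, -5.59 and -5.48 on HFT 22, 23, 24, 25, 26, 27, 28 and 36. In HF animals it read -6.13, -6.01, -5.13, -5.79, -4.50, -3.92, -4.93 and -3.74 on HF 8, 9, 10, 11, 12, 13, 14 and 35. The HF animals held the 3 lowest values and the 2 highest, so their range enclosed that of the HFT animals.

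To set T against B cell signal in each animal, every gene was taken as its difference from its own median over the 16 arrays, and the 7 T cell genes were averaged. In HFT animals the T cell mean was 0.17, 1.05, -0.20, 0.061, -0.15, 0.50, 1.36 and 0.24 on HFT 22, 23, 24, 25, 26, 27, 28 and 36, beside 0.28, 0.10, 0.63, 0.38, -0.37, 0.57, -0.77 and -0.65 for Cd79b. In HF animals it was 0.64, -0.26, -0.54, -0.096, 0.22, -0.14, -0.31 and -0.047 on HF 8, 9, 10, 11, 12, 13, 14 and 35, beside -1.30, -1.18, -0.31, -0.96, 0.33, 0.91, -0.10 and 1.08 for Cd79b. HFT 28 and HF 8 were among the highest for T cell genes and among the lowest for Cd79b, with T minus B differences of 2.12 and 1.94 log2 units. HF 13 and HF 35 were the highest for Cd79b and slightly below the median for T cell genes, with differences of -1.05 and -1.13. HFT 27 was high for both. This mean takes in Cd3e, Cd8a and Cd8b, which were at or near background on many arrays. With only the 4 T cell genes well above background on all 16 arrays, Cd3d, Cd3g, Cd4 and Ccl5, a choice made after the values were seen, the differences of HFT 28 and HF 8 were 1.62 and 1.72, and those of HF 13 and HF 35 were -1.10 and -0.88. With the 3 CD3 chains alone in place of the 7 genes, HFT 28 and HF 8 again had the largest differences, 1.45 and 1.33, and HF 13 the lowest, -1.14, while HF 35 moved to -0.50. On HF 8 the CD3 mean itself was only 0.026, so its difference came from its low Cd79b. On HFT 28 it was 0.69, with Cd3e not well above background. The T cell mean is carried by different genes in different animals: on HFT 28 Cd8a stood 4.71 above its median and Cd3d 0.21. HFT 28 and HF 8 are arrays with Lcn5 above 0 and HF 35 is 1 with Upk3a above 0. Over all 16 arrays 4 of 7 T cell genes had a positive r with Cd79b, and 18 of all 28 pairs of members did (median r = 0.11). With slide means subtracted it was 3 of 7 and 15 of 28 (median r = 0.089). Over the 13 arrays with low Lcn5 it was 5 of 7 and 20 of 28, and with slide means subtracted 3 of 7 and 19 of 28. Over the 10 arrays low for both Lcn5 and Upk3a, chosen after the values were seen, it was 6 of 7 and 27 of 28 (median r = 0.39). The share of positive pairs over all probes was not computed.

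**Figure D2:**
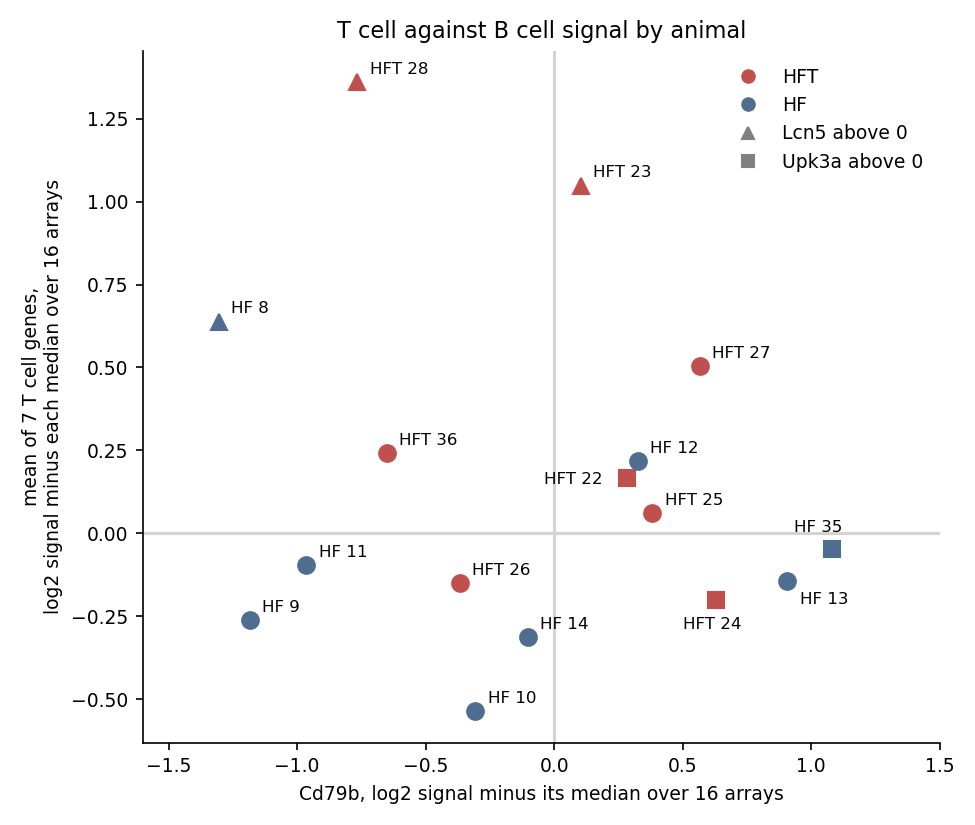
Mean of the 7 T cell genes (vertical axis) against Cd79b (horizontal axis), both as log2 signal minus the gene's median over the 16 arrays, 1 point per animal. The mean takes in values of Cd3e, Cd8a and Cd8b that were not well above background. The 3 arrays with Lcn5 above 0 have the highest T cell means (1.05, 1.36 and 0.64), and for the B cell gene they lie at 0.10, -0.77 and -1.30.

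On the arrays with Lcn5 above 0, Cd8a and several genes of cytotoxic cells were high. Of the 8 members with a probe, Cd8a alone lay above all 13 other arrays on all 3, at -3.90, -2.48 and -3.54 on HFT 23, HFT 28 and HF 8 against -8.63 to -6.36 elsewhere (median -7.49). Such a pattern was common, since 5.25% of the kept probes lay above all others on these 3 arrays and 4.99% below. Ccl5 missed it by 1 animal, because HFT 27, the array with the next highest Lcn5, read -0.35 and HFT 23 -0.59. Cd3d (-2.51, -2.37 and -2.64), Cd3g (-4.00, -4.04 and -4.86) and Cd4 (-3.47, -3.21 and -3.40) lay inside the range of the other 13 arrays on all 3. For Cd3g that range reaches up to the arrays with Upk3a above 0, and without those HFT 23 and HFT 28 were its highest, ahead of HF 12 at -4.64. Cd3e was also highest on HFT 23 and HFT 28, at -6.12 and -7.53, the second not well above background. Cd3d followed the slides, and on slide 1 it was higher on HFT 23 and HF 8 than on the other arrays of that slide, HFT 22 and HF 9 (-2.92 and -2.95), while on slide 3 HFT 28 and HFT 26 both read -2.37. With slide means subtracted, Cd3d and Cd8a gave r = 0.68 over 16 arrays (rho = 0.72, adjusted permutation p = 0.142 for r and 0.0953 for rho) and r = 0.43 without the 3 (rho = 0.42, adjusted p = 0.508). The values over 16 arrays span the step of Cd8a on the 3. Cd79b lay inside its range on HFT 23 and HFT 28, while HF 8 held its lowest value. These arrays were set apart by a measured value and are not a group of the study, so no test was made.

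Among listed genes of T cell receptor signalling and T cell identity, 15 of 25 with a probe were kept, and 5 of the 15 lay above all other arrays on these 3, among them Cd247 (the CD3 zeta chain), Zap70 (the kinase that binds it), Cd27 (a costimulatory receptor) and Ptprcap (a partner of CD45). Zap70 read -3.14, -2.54 and -2.42 on HFT 23, HFT 28 and HF 8 and at most -3.38 elsewhere, and Cd27 read -5.08, -4.42 and -4.31 against at most -5.54. Zap70 and Cd247 are shared by T and natural killer cells. Thy1 and Cd6 of the same list ran lower on the 3 arrays than their medians elsewhere. Thy1 read -4.31 to -3.54 against -3.40, and Cd6 -2.35 to -1.99 against -1.98. The median deviation of the 15 kept genes from their medians was 0.052 on HFT 23, 0.11 on HFT 28 and 0.54 on HF 8. It was 0.14 on HFT 27, so among these 3 the list as a whole stood out on HF 8 only. Of the natural killer and cytotoxic genes, 4 of 9 kept lay above all other arrays on these 3. They were the perforin gene Prf1, the granzyme genes Gzma and Gzmb, and Nkg7, a protein of cytotoxic granules. Their lowest value on the 3 arrays exceeded the highest elsewhere by 0.019 for Prf1, 0.046 for Gzmb, 0.14 for Gzma and 0.15 for Nkg7. Klrk1 of the same list went the other way, at -1.50 to -1.20 on the 3 arrays against a median of -1.05 elsewhere. Without the filter on dim probes 6 of 17 genes of this list lay above all other arrays. The added genes were Klrd1, a chain of natural killer receptors, and Ctsw, a protease of cytotoxic cells, each well above background on 2 arrays. Klrd1 read -7.43, -6.20 and -6.53 on HFT 23, HFT 28 and HF 8 and at most -8.25 elsewhere, and Ctsw -6.24, -6.02 and -6.76 against at most -6.97. The receptor genes Klrb1 and Klrb1b were not well above background on any array. Lymph node genes lay above all others on these arrays for 0 of 9. Macrophage genes did for 0 of 14 and pan-leukocyte genes for 0 of 10. With 5.25% of all kept probes lying above, counts this small do not set these lists apart. The median deviation from each gene's own median was 0.099, 0.20 and 0.26 for pan-leukocyte genes on HFT 23, HFT 28 and HF 8. For macrophage genes it was -0.038, -0.0032 and -0.23. The pan-leukocyte genes were thus above their medians there and the macrophage genes were not. Neither was particular to these arrays. Pan-leukocyte genes stood at 0.23 on HFT 27, 0.16 on HFT 25 and 0.14 on HF 13, and macrophage genes at -0.47 on HF 10 and -0.50 on HF 11. Among 13 B cell genes 1 lay above all others. That gene, Pou2af1, a coactivator of B cells, read 0.0085, 1.26 and 0.51 on HFT 23, HFT 28 and HF 8 and at most -2.71 elsewhere, while Spib, another B cell factor, ran at -3.56, -4.32 and -4.00 there, inside its range of -4.53 to -2.99 elsewhere. HFT 27, with Lcn5 at -2.71, was also high for Xcl1, a chemokine of cytotoxic cells, at -3.53, against -3.76, -2.05 and -2.32 on the 3 arrays and -5.86 to -5.24 on the other 12.

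Within the 13 arrays with low Lcn5, no member followed Lcn5. Cd8a gave r = 0.12 (rho = 0.016, adjusted p = 0.703 for r in a two-sided permutation test over 8 members), Ccl5 gave r = 0.38 (rho = 0.29, adjusted p = 0.412), and the smallest adjusted p was 0.325, for rho. For r it was 0.402. A pooled r over all 16 arrays is not given, because the 3 arrays form a cluster of their own. The part of duct RNA in the Cd8a values was not tested.

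**Figure D3:**
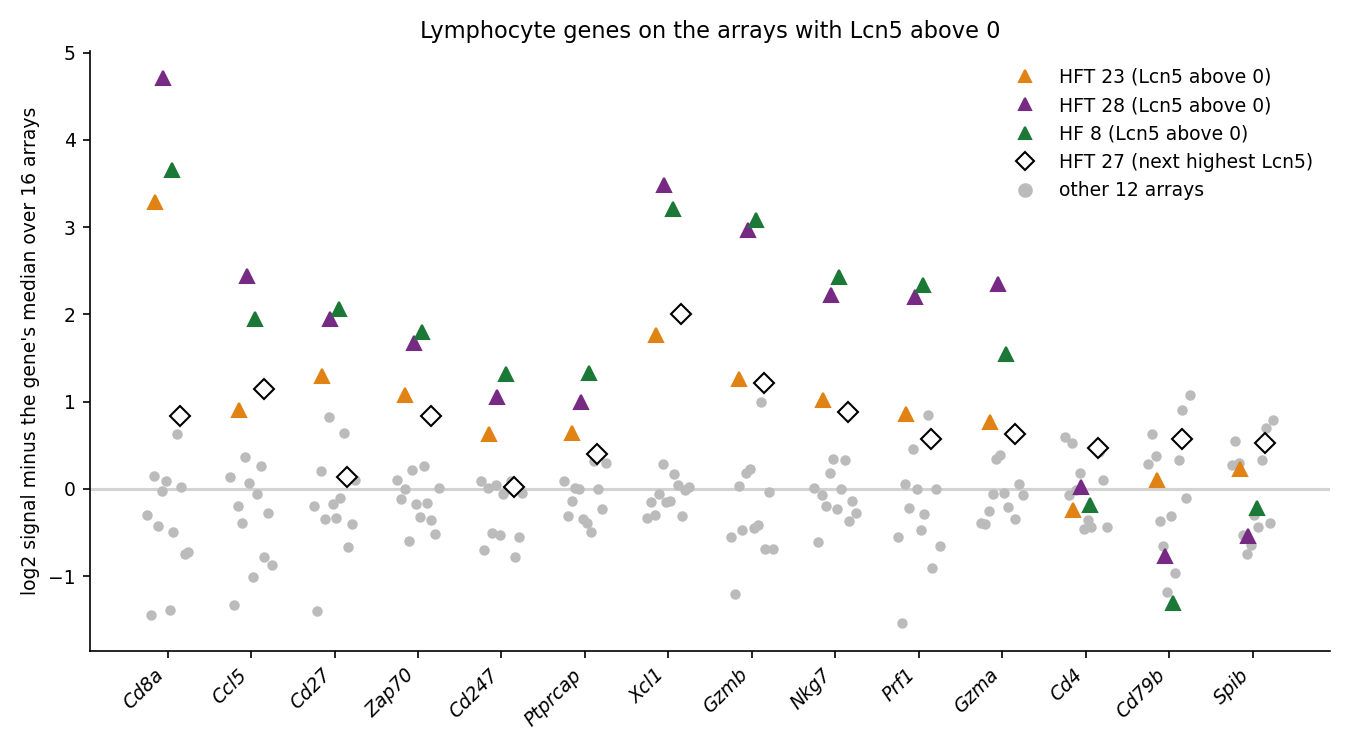
Lymphocyte genes as log2 signal minus the gene's median over 16 arrays (vertical axis), with the 3 arrays with Lcn5 above 0 as coloured triangles, HFT 27 as an open diamond and the other 12 as grey points. Cd8a and the cytotoxic genes shown are high on the triangles and often on the diamond. Cd4, Cd79b and Spib are not high on the triangles, but the diamond lies above the median for them, at 0.47 for Cd4 and 0.57 for Cd79b.

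Cd3g followed the other set of arrays. It read -3.81, -2.55 and -2.82 on HFT 22, HFT 24 and HF 35, where Upk3a was above 0, and -4.00 or lower on the other 13, a gap of 0.18. Of the kept probes 1.1% lay above all others on these 3 arrays. On the same arrays Cd3d read -2.92, -2.89 and -2.46 and Cd3e was not well above background. Of the T cell list 0 of 15 kept genes shared this, near the share over all kept probes. Of the urothelium list 4 of 4 did, among them Upk3a itself, by which these arrays were set apart. The gene most like Cd3g was Ctse (cathepsin E, an aspartic protease of epithelia and some immune cells), at -0.017, 1.90 and 1.87 on HFT 22, HFT 24 and HF 35 and -2.48 or lower elsewhere. Over the 10 arrays low for both Lcn5 and Upk3a, Cd3g and Ctse gave r = 0.86, whereas Ihh, the second most like Cd3g over 13 arrays, gave r = 0.47. These 10 arrays were among those on which Ctse and Ihh were picked, so the values are no independent check. The part of urothelial RNA in the Cd3g values was not tested. Cxcr3, a chemokine receptor of activated T cells outside that list, was also highest on HFT 24 (-4.80), but read -6.06 on HFT 22 and -5.79 on HF 35, below HFT 23 at -5.23.

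Between members, correlations over the 13 arrays with low Lcn5 were mostly weak. Of 28 pairs 1 passed adjustment, Cd8a with Ccl5 (r = 0.83, permutation p = 0.00045, adjusted p = 0.0126). Its rho of 0.76 did not (p = 0.00369, adjusted p = 0.103), and r was 0.66 without the 2 arrays farthest from the median of Cd8a. On 10 of these 13 arrays Cd8a was not well above background, and with normexp background correction r was 0.36. With slide means subtracted and permutation within slides, r was 0.87 (adjusted p = 0.219). Cd3d and Cd3e gave r = 0.53 (rho = 0.41, adjusted p = 0.298 for r), Cd4 and Cd8b r = 0.65 (rho = 0.67, adjusted p = 0.200), Cd8a and Cd8b r = 0.40 (rho = 0.37, adjusted p = 0.536), and Ccl5 and Cd79b r = -0.25 (rho = -0.34, adjusted p = 0.599). None of these passed. Cd3d and Cd3e passed over all 16 arrays after slide means were subtracted, as given above. With Upk3a arrays left out too, Cd3g gave r = 0.80 with Cd8a and 0.71 with Ccl5 over 10 arrays (rho = 0.70 and 0.73), and Cd4 gave r = 0.86 with Cd79b (rho = 0.83). Their permutation p-values, adjusted over 28 pairs, were 0.0664, 0.128 and 0.0563, so 0 pairs passed, and Cd3d with Cd3g gave r = 0.34.

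Set beside lists of genes of other cells, summarised per array as the median deviation of the list's kept genes, different members ran with different lists. Cd4 ran with macrophage genes (r = 0.89, rho = 0.85, adjusted p = 0.00429 for r and 0.0336 for rho over 56 relations in 13 arrays) and with pan-leukocyte genes (r = 0.91, rho = 0.80, adjusted p = 0.00429 and 0.0431). Without the 2 farthest arrays r was 0.88 and 0.89, and with slide means subtracted 0.90 and 0.91 (adjusted p = 0.0123 and 0.0137). Cd8a and Ccl5 ran with natural killer and cytotoxic genes, with r = 0.80 and 0.86 (rho = 0.64 and 0.74). The adjusted permutation p-values for r were 0.0120 and 0.00429, and those for rho, 0.127 and 0.0539, missed the threshold. With slide means subtracted r was 0.87 and 0.89, with adjusted p-values of 0.0137 for both. Cd79b ran with the B cell list (r = 0.77, rho = 0.75, adjusted p = 0.0166 for r and 0.0539 for rho, and r = 0.87, adjusted p = 0.0259, with slide means subtracted). Without the 2 farthest arrays r was 0.61 for Cd8a, 0.66 for Ccl5 and 0.58 for Cd79b. Cd8a was not well above background on most of the 13 arrays, and its relation to the list was not computed under normexp correction. Cd3d, Cd3g and Cd8b passed with no list. For Cd3d and the T cell list r was 0.64 (rho = 0.72, adjusted p = 0.101).

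Single genes of like pattern were sought too. Among 11585 genes, Spib, a transcription factor of B cells and plasmacytoid dendritic cells, was among the 2 most like Cd79b, with r of 0.94 over the 13 arrays (rho = 0.96) and 0.89 over all 16 (rho = 0.88). Like Cd79b it was highest on HF 35, at -2.99. Vav1, a signalling protein of blood cells, gave r = 0.90 over 13 arrays. For the mean of the CD3 chains the highest r over 16 arrays was lower, 0.75 with Cxcr3, and over 13 arrays 0.83 with Enkur and 0.82 with Txk, a T and natural killer cell kinase. For the single T cell genes, a step added after values were seen, the most like over 13 arrays were Mrc1, the macrophage mannose receptor, for Cd4 (r = 0.95), Nkg7 for Ccl5 (r = 0.94), the class II MHC gene RT1-Bb and the granzyme gene Gzmk for Cd8a (r = 0.88 and 0.85), Atoh7, a transcription factor of the retina, for Cd3d (r = 0.98) and Hibch, an enzyme of valine breakdown, for Cd8b (r = 0.93). None of the 6 genes most like Cd3d or Cd8b was on the T cell list. Cd8a was not well above background on most of the 13 arrays, and Aard and Slc2a13 came next for it (r = 0.85 and 0.84). Over all 16 arrays, where those with Lcn5 above 0 lay apart, the 6 most like Cd8a were Susd3, Folr1, Slc29a3, Gstm5, Or52p1 and Cdhr5. Their r was 0.96 to 0.97, and none was on the T cell or the cytotoxic list. These are the highest of many values and carry no test.

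**Figure D4:**
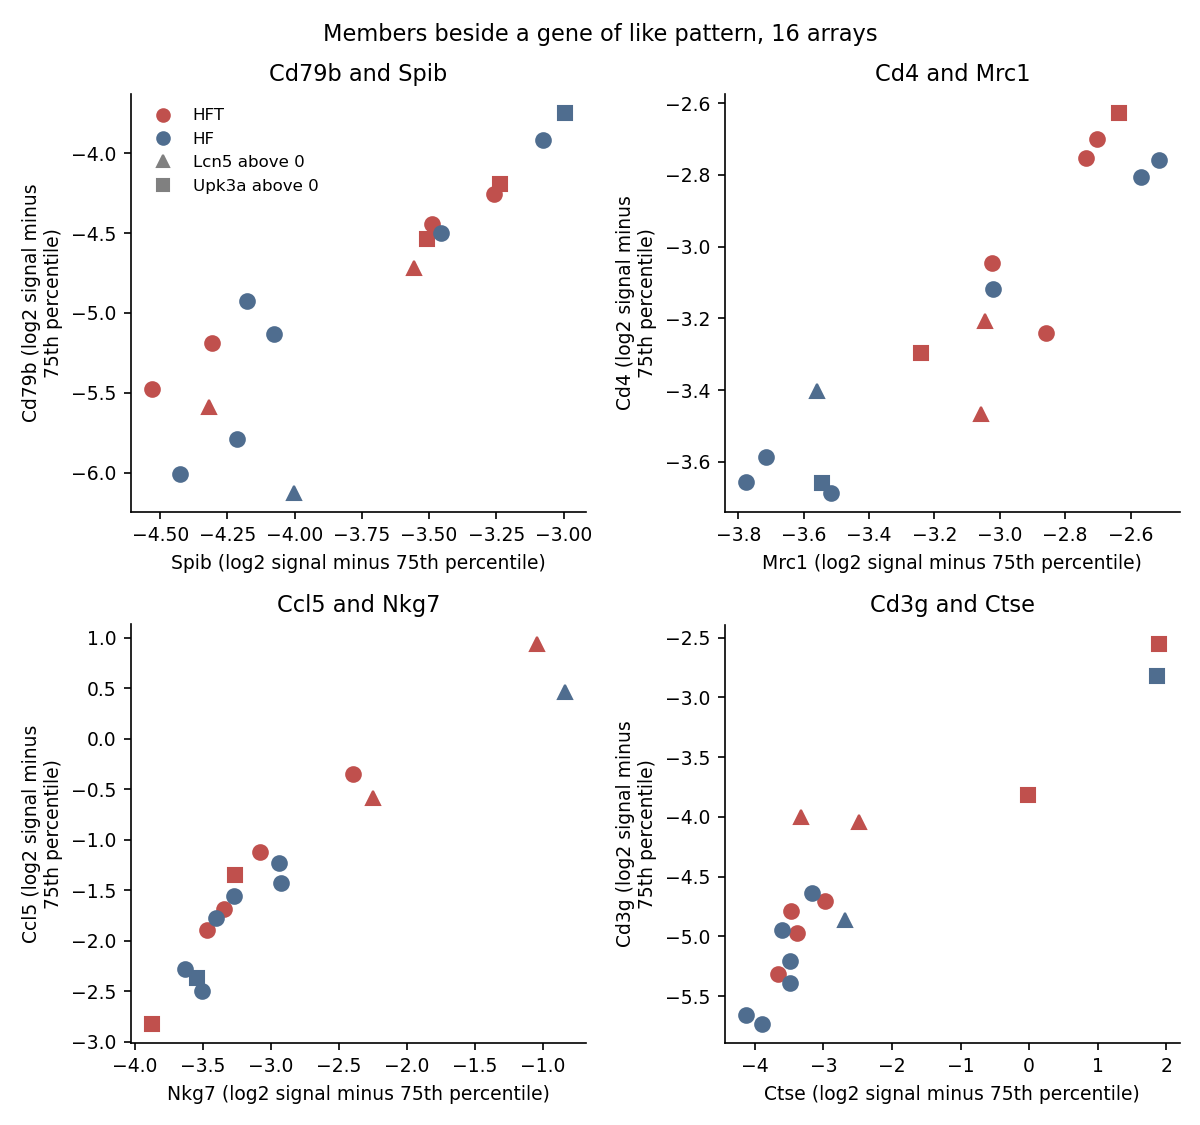
Level of 4 members (vertical axes) against a gene of like pattern (horizontal axes), all as log2 signal minus the array's 75th percentile, 16 arrays. Cd79b and Spib, Cd4 and Mrc1, and Ccl5 and Nkg7 rise together over arrays of all kinds, whereas Cd3g and Ctse are high mainly on the squares, the arrays with Upk3a above 0.

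The design compares HFT with HF, to ask whether giving the extract to the dams alters gene expression in the fat of their sons. None of the T and B cell genes tested differed between the groups beyond the spread between animals. Of the 7 members tested 0 passed limma's adjusted p of 0.05, as did 0% of 21808 probes, and each member's adjusted p was 0.999994. Before adjustment, 0 of 7 had a p under 0.05 as well, against 2.36% of probes (1.13% higher and 1.23% lower). With no filter on dim probes Cd3e, at background on most arrays, was tested too and was higher in HFT (limma unadjusted p = 0.0413, adjusted p = 0.9999). In that run 680 of 30344 probes had an unadjusted p under 0.05. Without the arrays with Upk3a above 0, 2 of 7 had such a p, Cd3d and Cd3g, and 726 of 21808 probes did. The groups overlapped for all 8 members with a probe, and 0% of probes had groups that did not overlap.

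Cd4 came nearest. It averaged -3.04 ± 0.31 in HFT animals and -3.33 ± 0.39 in HF animals (SD, n = 8 each), a difference of 0.29 log2 units (SE 0.17, 95% interval -0.067 to 0.65). Within slides 1 to 4 it differed by 0.50, 0.62, -0.44 and 0.49, so slide 3 went the other way. Cd3g averaged -4.27 ± 0.87 in HFT and -4.91 ± 0.93 in HF, a difference of 0.63 (SE 0.42, interval -0.26 to 1.53), and 1.22, 1.55, 0.24 and -0.47 within the slides. The difference of Cd3g was 0.39 without HFT 24 and 0.93 without HF 35 (limma unadjusted p = 0.0147, adjusted p = 0.9999). Without all 3 arrays with Upk3a above 0 it was 0.57 (limma unadjusted p = 0.0352, adjusted p = 0.999). Cd8b averaged -6.09 ± 0.15 in HFT and -6.30 ± 0.37 in HF, a difference of 0.21 (SE 0.14, interval -0.088 to 0.50). Most of that rested on HF 8, and without that animal the difference was 0.080. Under normexp correction it turned to -0.092.

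Cd8a averaged -6.34 ± 2.08 in HFT and -7.06 ± 1.55 in HF, a difference of 0.72 with a wide interval of -1.10 to 2.53 (SE 0.86). It moved with single animals, to 0.17 without HFT 28 and 1.22 without HF 8. Without the 3 arrays with Lcn5 above 0 it was 0.17, without those with Upk3a above 0 it was 1.17, and under normexp correction 0.14. Cd3g and Cd4 also came to 0.14 under normexp correction. Ccl5 averaged -1.11 ± 1.13 in HFT and -1.59 ± 0.95 in HF, a difference of 0.48 (SE 0.49, interval -0.56 to 1.51). It was 0.18 without HFT 28 and 0.77 without HF 8, and within the slides -0.49, -0.23, 1.28 and 1.34, so slides 1 and 2 opposed slides 3 and 4. Cd3d averaged -2.53 ± 0.26 in HFT and -2.62 ± 0.15 in HF, a difference of 0.086 (SE 0.11, interval -0.14 to 0.32), the narrowest interval among the members. It was 0.038 without HF 9 and 0.14 without HFT 22. Without the 3 arrays with Upk3a above 0 it was 0.23 (limma unadjusted p = 0.0248, adjusted p = 0.999).

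Cd79b averaged -4.80 ± 0.55 in HFT and -5.02 ± 0.92 in HF, a difference of 0.22 (SE 0.36, interval -0.54 to 0.97). Within the slides it was 1.44, 1.14, -1.18 and -0.53, so the sign depended on the slide, and under normexp correction the difference was -0.068. All 7 differences lay above 0, against 43.8% of probes, with a median of 0.38 for the T cell genes and a median of -0.016 over all probes. Cd8a passed the filter only through its HFT arrays, the genes were correlated, and no test of the count was made.

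**Figure D5:**
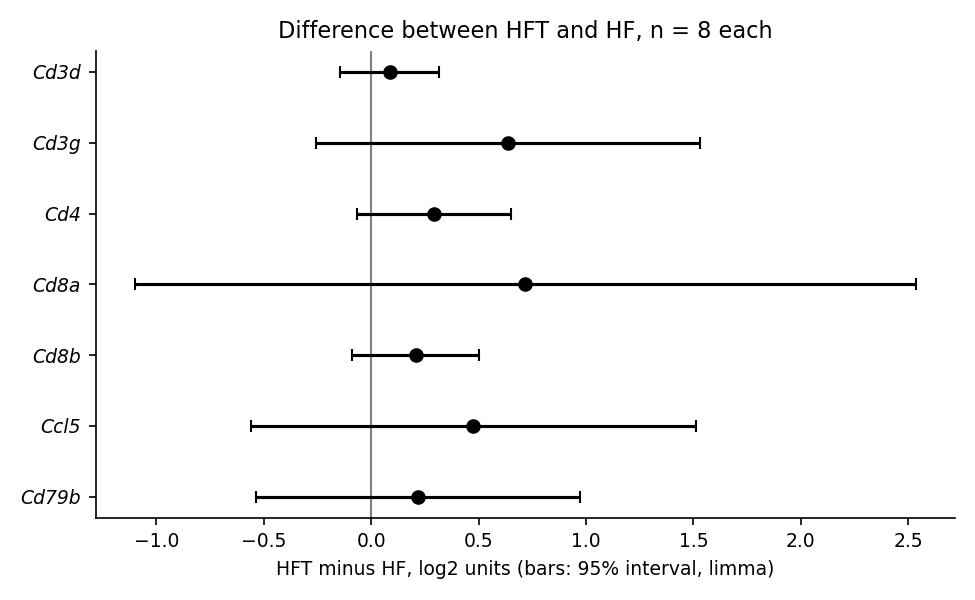
Difference between HFT and HF (HFT minus HF, log2 units, horizontal axis) for the 7 tested members, with 95% intervals from limma, n = 8 each. Every interval includes 0, and those of Cd8a (-1.10 to 2.53) and Ccl5 (-0.56 to 1.51) are the widest.

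Lists of related genes are set beside the members, and no list was tested. No gene of any list passed the adjusted threshold. Over all probes 43.8% lay above 0, and 1.13% were higher at an unadjusted p under 0.05. Of the 15 kept T cell genes 11 lay above 0, with a median difference of 0.058 and 0 at an unadjusted p under 0.05, and those of smallest p were Cd5 (-0.17, SE 0.17), Zap70 (0.33, SE 0.35), Thy1 (0.14, SE 0.19) and Lat (-0.11, SE 0.15). Of 13 B cell genes 9 lay above 0 (median 0.041) and 0 were at that p, with Cd180, a Toll-like receptor homologue, at 0.38 (SE 0.20) and Fcrla, an Fc receptor-like protein of B cells, at -0.49 (SE 0.32). Of 9 natural killer and cytotoxic genes 8 lay above 0 (median 0.13), again with 0 at that p, and Txk differed by 0.48 (SE 0.37) and Xcl1 by 0.48 (SE 0.60). Of 9 lymph node genes 2 lay above 0 (median -0.099), Glycam1, a mucin of lymph node vessels, at 0.41 (SE 0.55) and the chemokine gene Ccl21 at 0.021 (SE 0.31), with the addressin gene Madcam1 at -0.31 (SE 0.24) and the follicle chemokine gene Cxcl13 at -0.39 (SE 0.35). Macrophage genes lay above 0 for 14 of 14 (median 0.30), 5 of them at an unadjusted p under 0.05, among them Trem2 (0.85, SE 0.34) and Cd68 (0.35, SE 0.13). Of 10 pan-leukocyte genes 8 lay above 0 and 2 were at that p, Itgb2, an integrin chain (0.36, SE 0.13), and Ptprc, which encodes CD45 (0.32, SE 0.12). The macrophage list moved with Cd4 over the animals, as given above, and its part in the difference of Cd4 was not tested.

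Several defining genes of T and B cells were at background. Cd28, Trat1, Ctla4, Cd40lg and Cd96 were not well above background on any array, like Blk, Bank1, Fcer2, Tnfrsf17 and Cxcr5 among B cell genes and Tnfsf11 and Fdcsp among lymph node genes. At this sensitivity a difference in those genes was not detectable.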

How the data were processed

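Total RNA of 16 epididymal fat pads was labelled with Cy3 and hybridised to 1-colour Agilent arrays, per the labels. Each array's spot intensity values come from Agilent Feature Extraction 10.7.3.1, as deposited: background was subtracted in the processed signal and arrays were not scaled to each other, per the file headers. A table of the authors' log2 values served as an alternative. Its normalization is not given in these sources.

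From the processed signal, log2 values minus each array's 75th percentile were computed. Control spots and outlier spots were left out and spots of a probe averaged, which left 30344 probes. A probe was kept if at least 4 of the 8 arrays of either group had it well above background (21808). HFT was compared with HF by limma 3.58.1 in R 4.3.3 (files read with version 1.17.8 of data.table) over all kept probes, adjusted after Benjamini-Hochberg, with 0.05 as the threshold. Correlations used 100000 two-sided permutations (numpy 2.4.6, scipy 1.17.1). The fit was tested on simulated data.

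Probes were named through RefSeq accessions (assembly GRCr8). Ms4a1 was not matched to a probe through this table, so Cd79b replaced the planned mean of both. Normexp correction (offset 50) used median spot intensity. Members and lists were chosen with earlier results of these data known. All members and, per list, up to 4 genes of smallest unadjusted p were named, with the 6 genes most like the CD3 mean and Cd79b, of which the first few are printed. Genes on arrays with Lcn5 or Upk3a above 0 and the genes most like single members were named after their values were seen. A few genes that the rule names are not reported here.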

Additional observations from a re-analysis of the deposited data

Results flagged for a closer look

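In 5 cases 1 HF animal stood far from its 7 companions, with a gap to the nearest of them, relative to the group's range, over Dixon's 95% critical value, which chance passes in about 1 of 20 groups. The 8 members with a probe gave 16 groups to test. HF 8 was the highest HF animal for Cd8a (-3.54) and for Ccl5 (0.46) and the lowest for Cd8b (-7.19), where the probe was not well above background. Its gaps were 0.60, 0.57 and 0.73 of the range. HF 8 is also 1 of the arrays with Lcn5 above 0. HF 35 was the highest HF animal for Cd3g (-2.82, 0.62 of the range) and is 1 of the arrays with Upk3a above 0. HF 9 was the lowest HF animal for Cd3d (-2.95, 0.61 of the range). No HFT animal stood so far apart for any member.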

How the results depend on the processing

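No paired analysis was possible because the labels give HFT and HF animals different numbers. No member passed the adjusted threshold under any alternative run: median, quantile or normexp scaling, the deposited table, other filters, slide as a block (736 probes at an unadjusted p under 0.05), array weights, each animal left out, or arrays with high Lcn5 or Upk3a left out. The count over all probes was 1 without the arrays with Lcn5 above 0, namely Acot5, an acyl-CoA thioesterase (difference -4.38, SE 0.49, limma adjusted p = 0.0131), and 0 without each animal in turn (lowest 0, highest 0). The signs turned under normexp correction for Cd8b (-0.092) and Cd79b (-0.068), whose cause was not tested. The median over the T cell genes ran from 0.178 to 0.462 and that of Cd79b from 0.058 to 0.398 with each animal left out, and Cd79b differed by 1.44, 1.14 and -1.18 within slides 1, 2 and 3. Under normexp correction the T cell median was 0.14. Pairs of members with a correlation past adjustment numbered 1 over 16 arrays, 2 with slide means subtracted (Cd3d with Cd3e and Cd8a with Ccl5), 0 with those means subtracted and the Lcn5 arrays left out, and 0 without the Lcn5 and Upk3a arrays, a choice made after seeing the data that also leaves fewer arrays. Over 16 arrays the pair of Cd8a with Ccl5 spans the step of Cd8a on the arrays with Lcn5 above 0. That step was 2.46 as reported, 2.27 and 2.23 with median and quantile scaling, 1.34 in the deposited table and 0.73 with normexp. The gap of Cd3g on the Upk3a arrays lay between 0.057 and 0.37. Another probe of a member could not be tried, with 1 probe each. Signal over background limits Cd3e, Cd8a and Cd8b.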

Other observations

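The probe that the table names Tbx21 read 4.89 to 6.11 in HFT animals and 5.34 to 5.72 in HF animals, far above the 75th percentile on every array. That this probe measures Tbx21, a transcription factor of lymphocytes, was not tested. Foxp3, the regulatory T cell factor, read -6.57 to -5.51 in HFT and -6.70 to -5.85 in HF, with HFT 23, HFT 28 and HF 8 at -6.55, -6.04 and -6.27. Both were named after their values were seen.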
